A study of Mus musculus with 3 samples.

Results

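The genes of DNA replication and S phase were followed in single cells of the mouse hindstomach, the glandular part of the stomach, at embryonic day 18.5 (E18.5). The set holds 39 genes chosen by name, and all 39 were listed in the gene tables of all 3 libraries, among 46675 gene symbols over the libraries. Each library came from 1 genotype. The control carried Shh-Cre alone, the second library Shh-Cre;YAP5SA, and the third Shh-Cre;YaploxP/loxP, called Yap knockout here (YapKO in the plots). Shh-Cre is a recombinase under the control of the Sonic hedgehog gene, which is active in the gut epithelium, so that all 3 groups share the Cre and recombination is directed at the epithelium while stromal, muscle, nerve and blood cells of the same tissue are not its target. YAP5SA is a form of the coactivator YAP that cannot be held back by Hippo kinase phosphorylation, and the loxP sites allow Yap1 to be deleted. The sources used here do not give the number of embryos per library, and no genotype has a second library. Differences below are therefore differences between libraries, without a test, and every interval is a 95% interval that covers counting error only.

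Each chromosome is copied once in a cell cycle. In G1, Orc6, Cdc6 and Cdt1 help to load the ring of MCM proteins onto origins, cyclin E (Ccne1, Ccne2) drives entry into S phase, and Cdc45, the GINS proteins and Mcm10 turn the rings into running helicases. Primase and DNA polymerases then copy the strands on the sliding clamp Pcna, Fen1 and Lig1 join the lagging strand, Rrm1, Rrm2, Dut, Tyms and Tk1 supply deoxynucleotides, and the Chaf1 proteins, Slbp and Uhrf1 rebuild chromatin behind the fork. Many of these genes are transcribed under E2F factors as cells leave G1, and at the end of gestation the gastric epithelium is a tissue in which division and the first mature secretory cells stand side by side.

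The libraries held 7692, 9439 and 5739 deposited cells in the order control, YAP5SA and Yap knockout, of which 6931, 8512 and 4892 were kept, with median depths between 4885.0 and 5231.5 unique molecular identifiers (UMIs, each standing for 1 captured RNA molecule). Cells were given a class from fixed marker genes, none of them a replication gene, and the classes are written here as epithelial-like and so on. In epithelial-like cells Yap1 stood at 47.7 CPM (UMIs of the gene per 1000000 UMIs of the summed cells) in the control, 54.8 CPM in YAP5SA and 22.1 CPM in Yap knockout. A 3′ tag may lie outside the deleted part or outside the transgene, so this checks the labels only in part. Fibroblast-like cells had 61.1, 67.1 and 75.8 CPM of Yap1 in that order. All 11 epithelial markers were present in the epithelial-like sums of all 3 libraries, but not at the same level. They summed to 8948 CPM in the control, 16848 CPM in YAP5SA and 9225 CPM in Yap knockout. The part of this difference in the levels of the replication genes was not tested. RNA of other cells was present too: the 9 fibroblast markers summed to 7577 CPM in the control epithelial-like cells, 3168 CPM in YAP5SA and 1075 CPM in Yap knockout, with none at 0. Their sums in enteric neuron-like cells were of like size, at 6909, 3349 and 897 CPM. The deposited cell names are running numbers, of which 2409, 1388 and 1528 recur between pairs of libraries, and they cannot show whether libraries share cells.

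In the epithelium the replication genes stood highest in the YAP5SA library. The 39 genes summed to 759 CPM in 650 control epithelial-like cells, 1487 CPM in 1689 YAP5SA cells and 621 CPM in 888 Yap knockout cells. The YAP5SA level was 1.96-fold the control level (1.88 to 2.04), and the Yap knockout level was 1.22-fold below it (1.17 to 1.28). Both comparisons use the same control library. The fold in YAP5SA was not spread evenly over the replication machinery, as the plot of each gene by library shows: the genes of nucleotide supply, licensing and cyclin E stood furthest above the control, and those of the polymerases and of lagging-strand joining least.

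**Figure D1:**
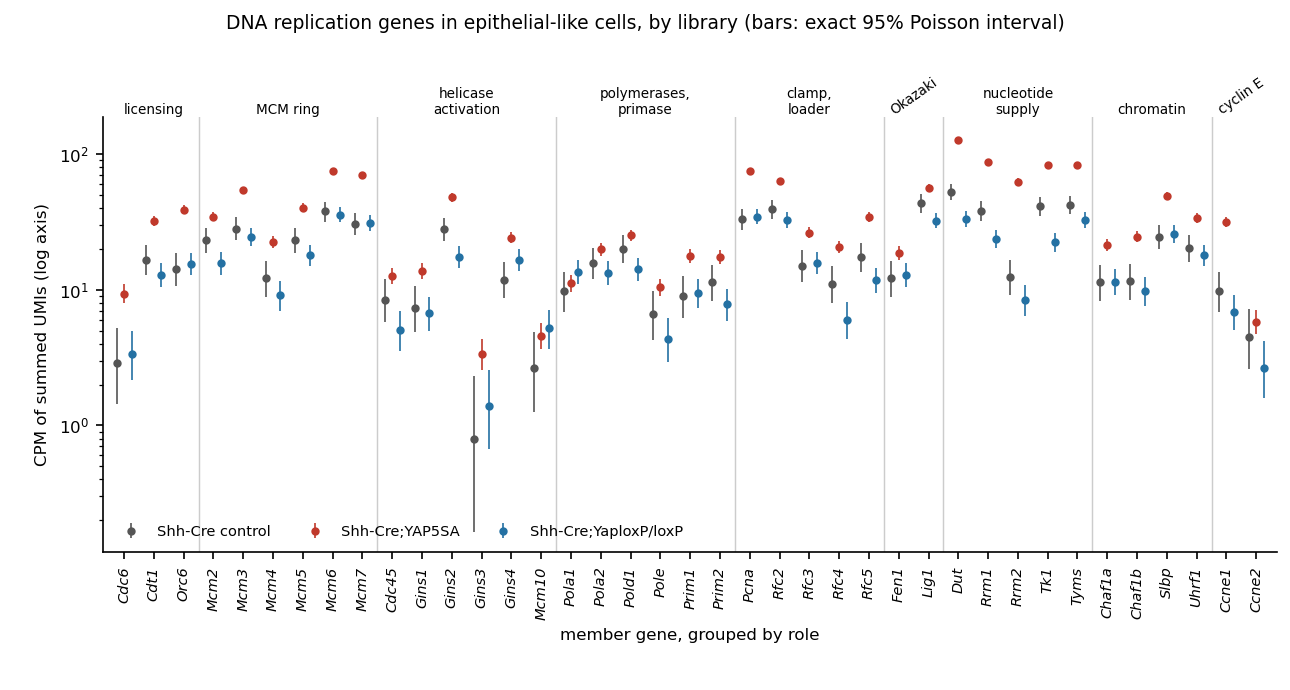
CPM of each of the 39 genes (log axis) in the summed epithelial-like cells of the 3 libraries, grouped by role; points are levels and bars exact 95% Poisson intervals. The YAP5SA point lies above the control point for all 39 genes, with the widest gap for Rrm2, from 12.4 to 62.2 CPM, and a narrow gap for Pola1, from 9.75 to 11.1 CPM.

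All 39 genes had a higher level in YAP5SA than in the control. Among the 9407 genes with a mean of at least 10 CPM over the 3 libraries in these cells, 56.2% were higher in YAP5SA. A mean of at least 10 CPM over the 3 libraries was reached by 32 of the 39. On the scale of log2(CPM + 5), 25 of the 32 were at least 1.5-fold higher, against 19.6% of the 9407 genes past the same mean, and 0 were at least 1.5-fold lower, against 13.8%. Pola1, Prim1 and Ccne1 reached the mean with a control level under 10 CPM; of the 29 genes with at least 10 CPM in the control itself, 23 were at least 1.5-fold higher. With no minimum, 27 of all 39 were, against 6.9% of 36065 genes with a UMI, and 0 were at least 1.5-fold lower, against 5.14%. The median log2 ratio of the 32 was 0.74, beside 0.09 for all genes.

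The genes of nucleotide supply held the single gene furthest above the control. Rrm2 encodes the small subunit of ribonucleotide reductase, which makes deoxynucleotides and is itself degraded outside S phase. Its level was 12.4 CPM in the control, 62.2 CPM in YAP5SA and 8.39 CPM in Yap knockout, and the YAP5SA ratio of 5.02 (3.75 to 6.88) was the highest of the 32 genes past the minimum. Dut, the dUTPase that keeps uracil out of DNA, stood at 52.4, 128 and 33.3 CPM, 2.44-fold higher in YAP5SA (2.11 to 2.83). Rrm1, the large reductase subunit, stood at 37.9, 87.7 and 23.6 CPM, 2.31-fold higher (1.95 to 2.76). The thymidine kinase gene Tk1 and the thymidylate synthase gene Tyms had nearly the same control and YAP5SA levels. Tk1 stood at 41.4, 82.9 and 22.4 CPM with a YAP5SA ratio of 2.0 (1.70 to 2.38). Tyms stood at 42.2, 82.4 and 32.6 CPM with a ratio of 1.95 (1.66 to 2.32). The control lay between the other two libraries for all 5 genes of this group, whose sum was 2.38-fold higher in YAP5SA (443 CPM against 186 CPM) and stood at 0.646 of the control in Yap knockout (120 CPM).

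The cyclin E genes, which act at entry into S phase, together stood at 14.2 CPM in the control, 37.5 CPM in YAP5SA and 9.51 CPM in Yap knockout, 2.63-fold higher in YAP5SA (1.99 to 3.55). Ccne1, cyclin E1, was at 9.75 CPM in the control, 31.7 CPM in YAP5SA and 6.85 CPM in Yap knockout, a YAP5SA ratio of 3.25 (2.33 to 4.66). Its paralogue Ccne2 did not reach the minimum, with 4.48, 5.81 and 2.66 CPM, and its YAP5SA ratio of 1.3 had an interval across 1 (0.771 to 2.31). Orc6, a subunit of the origin recognition complex, stood at 14.2, 38.8 and 15.5 CPM, 2.73-fold higher in YAP5SA (2.07 to 3.67). Here control and Yap knockout did not part: the knockout ratio was 1.09 (0.781 to 1.54). The MCM loader Cdc6 was scarce, with 11, 161 and 24 UMIs or 2.90, 9.36 and 3.36 CPM, and its YAP5SA ratio of 3.23 had a wide interval (1.76 to 6.60). Its partner Cdt1 was at 16.6, 31.9 and 12.9 CPM, 1.92-fold higher in YAP5SA (1.48 to 2.53). Licensing genes together were 2.37-fold higher in YAP5SA (1.98 to 2.87), and their knockout ratio was 0.941 (0.755 to 1.18).

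All 6 Mcm genes of the helicase ring were higher in YAP5SA, with ratios from 1.49 for Mcm2 to 2.27 for Mcm7. Mcm7 stood at 30.6, 69.5 and 30.9 CPM in control, YAP5SA and Yap knockout. Mcm6 stood at 37.7, 75.2 and 35.7 CPM, 1.99-fold higher in YAP5SA (1.68 to 2.39). Mcm5 stood at 23.2, 40.2 and 18 CPM, 1.73-fold higher (1.39 to 2.19). The ring takes 1 copy of each subunit, yet the ratios differed within it: Mcm2, at 23.2, 34.5 and 15.7 CPM, was 1.49-fold higher (1.19 to 1.88), beside 1.88 to 2.78 for Mcm7. Mcm2 was also the Mcm gene with the lowest knockout ratio, 0.675 (0.506 to 0.903), while Mcm7 was level with the control (1.01, 0.804 to 1.28). Mcm3 and Mcm4 lay between, with YAP5SA ratios of 1.91 and 1.84.

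The promoters of these genes are known for E2F sites, and those of 2 Mcm genes are shown with those of the 2 genes that had the highest ratios in YAP5SA among the genes past the minimum. Sequences are from RefSeq (GRCm38.p6, an older build than that of the counts), 5′ to 3′ on the gene's strand, limited to bases upstream of the start that no annotated gene covers. Capitals mark E2F-like words, which were TTTCCCGC, TTTGGCGC, TTTCGCGC and TTTGCCGC on either strand, overlaps allowed. Mcm5 covers chr8:75109339-75109467 on the + strand, Mcm6 chr1:128359706-128359875 on the - strand, Rrm2 chr12:24708084-24708240 on the + strand and Ccne1 chr7:38107535-38107660 on the - strand.
Mcm5: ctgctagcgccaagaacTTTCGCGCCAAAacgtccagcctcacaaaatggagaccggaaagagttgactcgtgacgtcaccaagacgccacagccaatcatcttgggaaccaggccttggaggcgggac
Mcm6: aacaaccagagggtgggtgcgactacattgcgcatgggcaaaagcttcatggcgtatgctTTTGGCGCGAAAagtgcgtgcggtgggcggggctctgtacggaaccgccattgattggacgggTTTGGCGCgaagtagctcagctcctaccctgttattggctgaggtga
Rrm2: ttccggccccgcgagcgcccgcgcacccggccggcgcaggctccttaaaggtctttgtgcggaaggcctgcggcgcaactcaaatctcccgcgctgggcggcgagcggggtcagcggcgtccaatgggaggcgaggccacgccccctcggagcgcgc
Ccne1: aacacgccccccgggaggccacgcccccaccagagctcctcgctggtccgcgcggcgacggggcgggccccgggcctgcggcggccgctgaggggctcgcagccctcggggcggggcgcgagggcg
In Mcm5 and in Mcm6 a pair of words on opposite strands overlaps in 1 capital run, and Mcm6 holds another word closer to the start. The stretches of Rrm2 and Ccne1 hold none of these letters.

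Of the 39 genes, 31 had a promoter in the RefSeq table, 300 bases from 250 before to 50 after the start. E2F-like words were in 12 of the 31 (38.7%), against 704 of 27025 genes in the table (2.60%). The 12 were Cdc6, Cdt1, Gins3, Lig1, Mcm3, Mcm5, Mcm6, Mcm7, Pola1, Pold1, Rfc3 and Uhrf1. The word CCAAT was in 18 of 31 (58.1%), against 41.1% of all genes. Genes with an E2F-like word had a median YAP5SA log2 ratio of 0.66, and the 19 without one 0.84. Words are a description of these letters, and binding was not measured.

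The helicase activators were mostly scarce. Gins2 and Gins4, subunits of the GINS complex, were the genes of this group past the minimum, and they went apart in the knockout. Gins4 stood at 11.9 CPM in the control, 24.2 CPM in YAP5SA and 16.6 CPM in Yap knockout, a YAP5SA ratio of 2.04 (1.5 to 2.84) and a knockout ratio of 1.40 (0.988 to 2.02). Gins2 stood at 27.9, 47.8 and 17.5 CPM, 1.71-fold higher in YAP5SA (1.40 to 2.12) and 1.60-fold lower in Yap knockout (1.22 to 2.09). Cdc45, Gins1, Gins3 and Mcm10 were too low to reach the minimum. Gins3 had only 3 control, 58 YAP5SA and 10 Yap knockout UMIs, and its YAP5SA ratio of 4.26 had an interval from 1.39 to 21.3.

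At the fork the clamp and the polymerases differed in degree. Pcna, the sliding clamp that holds polymerases on DNA, stood at 32.9, 74.6 and 34.5 CPM in control, YAP5SA and Yap knockout, 2.26-fold higher in YAP5SA (1.88 to 2.74). Its loader genes Rfc2, Rfc3, Rfc4 and Rfc5 had YAP5SA ratios from 1.62 to 1.97. Of the genes past the minimum, the polymerase genes Pola1, Pola2 and Pold1 differed least. Pola1, the catalytic subunit of the polymerase that starts each strand, stood at 9.75, 11.1 and 13.6 CPM with a YAP5SA ratio of 1.14 (0.797 to 1.67). Pola2, its accessory subunit, stood at 15.8, 19.9 and 13.3 CPM with a ratio of 1.26 (0.953 to 1.68). Pold1, the catalytic subunit of polymerase delta, stood at 20.0, 25.1 and 14.1 CPM with a ratio of 1.25 (0.98 to 1.62). The intervals of all 3 reached below 1. The primase gene Prim1, at 8.96, 17.7 and 9.51 CPM, differed from them with a ratio of 1.98 (1.39 to 2.91). Polymerase and primase genes together were 1.40-fold higher in YAP5SA, and Fen1 and Lig1 together 1.35-fold. Lig1, which seals the lagging strand, stood at 43.2, 56.1 and 32.3 CPM, 1.3-fold higher in YAP5SA (1.10 to 1.54) and 1.34-fold lower in Yap knockout (1.09 to 1.64). Pole, the leading-strand polymerase, did not reach the minimum (6.59, 10.4 and 4.34 CPM), and its YAP5SA ratio was 1.58 (1.04 to 2.51). The primase subunit Prim2 and the flap nuclease Fen1 both had a YAP5SA ratio of 1.54.

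Genes of chromatin behind the fork were higher as well. Slbp, the protein that binds histone messenger RNAs, stood at 24.5, 49.2 and 25.7 CPM, 2.01-fold higher in YAP5SA (1.62 to 2.52). Uhrf1, which brings the maintenance methyltransferase to new DNA, stood at 20.3, 33.7 and 17.9 CPM, 1.66-fold higher (1.31 to 2.14). The histone chaperone subunits Chaf1a and Chaf1b had ratios of 1.88 and 2.13. The 4 genes together were 1.90-fold higher in YAP5SA and at 0.958 of the control in Yap knockout.

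In the Yap knockout epithelium the genes lay closer to the control. Of all 39, 26 were lower and 13 higher, and the median log2 ratio of the 32 genes past the minimum was -0.25. The median over all genes past it was 0.03, so that more of those were higher than lower. None of the 32 was at least 1.5-fold higher, against 6.44% of 9407 genes. Tk1 and Dut, 2 of the 32, were at least 1.5-fold lower, a share near the 6.2% of all 9407 genes. Rrm1 fell just short of that limit, at -0.58 on the log2 scale. With no minimum the counts over all 39 were again 0 and 2, against 2.93% and 2.61%. Tk1 was 1.85-fold lower (1.47 to 2.32), Rrm1 1.61-fold lower (1.28 to 2.02) and Dut 1.58-fold lower (1.3 to 1.91). Pola1 was on the other side with a ratio of 1.39 (0.944 to 2.09), and Pcna, Fen1, Slbp, Prim1 and Rfc3 had ratios between 1.05 and 1.06. A lower level was not limited to the epithelium: the enteric neuron-like sum of the 39 genes was 628 CPM in the control and 504 CPM in Yap knockout, 1.25-fold lower (1.15 to 1.35). The genes of nucleotide supply had a ratio below 1 in Yap knockout in all 10 classes with at least 50 cells in each library, with an interval below 1 in 9 of them. In fibroblast-like cells Tk1 was at 65.8 CPM in the control, 65.8 CPM in YAP5SA and 41.0 CPM in Yap knockout, 0.623 of the control (0.509 to 0.756).

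**Figure D2:**
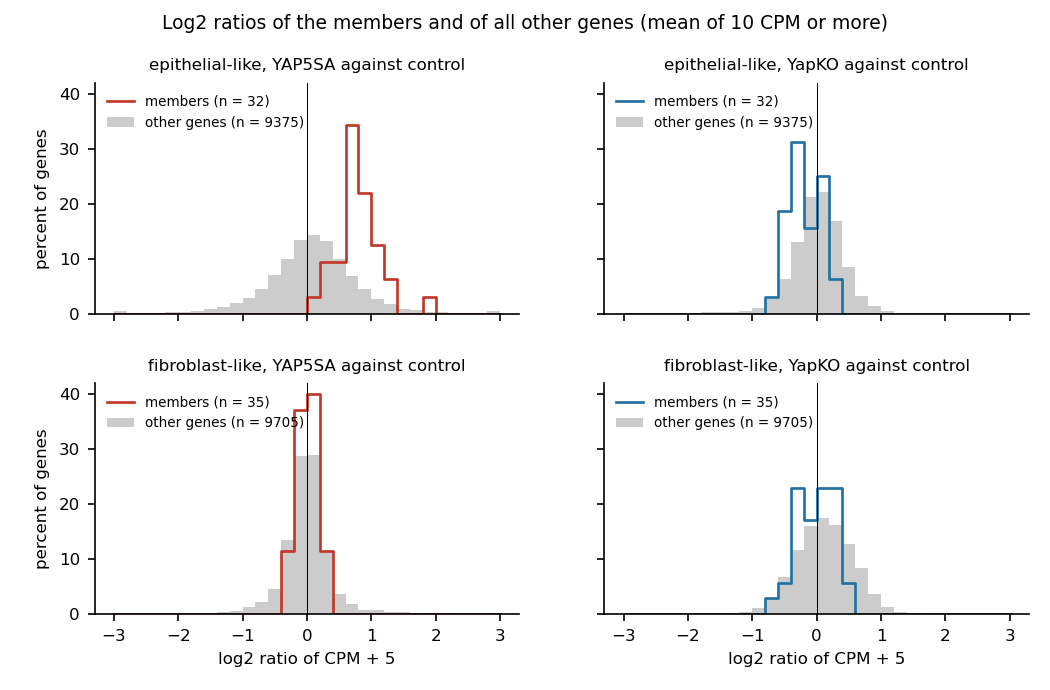
Percent of genes (vertical axis) by log2 ratio of CPM + 5 (horizontal axis) for the replication genes (coloured line) and all other genes (grey bars) with a mean of at least 10 CPM, in epithelial-like and fibroblast-like cells. In the YAP5SA epithelium the median of the replication genes is 0.74 and that of all genes 0.09, and in fibroblast-like cells 19 of the 39 genes lie above the control and 20 below.

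A sum does not say how many cells carry it. At full depth, at least 4 of the 39 genes were detected in 28.2% of control epithelial-like cells, 63.3% of YAP5SA cells and 31.2% of Yap knockout cells, but YAP5SA cells were deeper, with a median of 6610 UMIs against 3330.5 and 3816.5. After each cell was thinned to 2000 UMIs, the share was 7.87% in the control (5.54 to 10.8; 445 cells), 22.8% in YAP5SA (20.6 to 25; 1450 cells) and 3.96% in Yap knockout (2.60 to 5.74; 657 cells), and 205, 239 and 231 shallower cells were left out. Enteric neuron-like cells, which no longer divide, were read as a reference: 4.03% (1.32 to 9.16), 5.06% (1.40 to 12.5) and 1.16% (0.378 to 2.69) after the same thinning. Their median depths were 7558, 9068 and 7475 UMIs, above those of the epithelial-like cells. How much of their level is free RNA was not tested. Another class gives another reference: erythroid-like cells had shares of 1.33%, 13.3% and 0.581%. The neuron-like intervals rest on 124, 79 and 431 cells, so their widths differ. In the control and in Yap knockout the epithelial interval overlapped the neuron-like interval of the same library. In YAP5SA the epithelial interval lay wholly above the neuron-like one. In sum, neuron-like cells stood at 628 CPM of the 39 genes in the control and 628 CPM in YAP5SA. Thinned to 4000 UMIs, the epithelial shares were 26.5%, 50.8% and 20.2%.

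**Figure D3:**
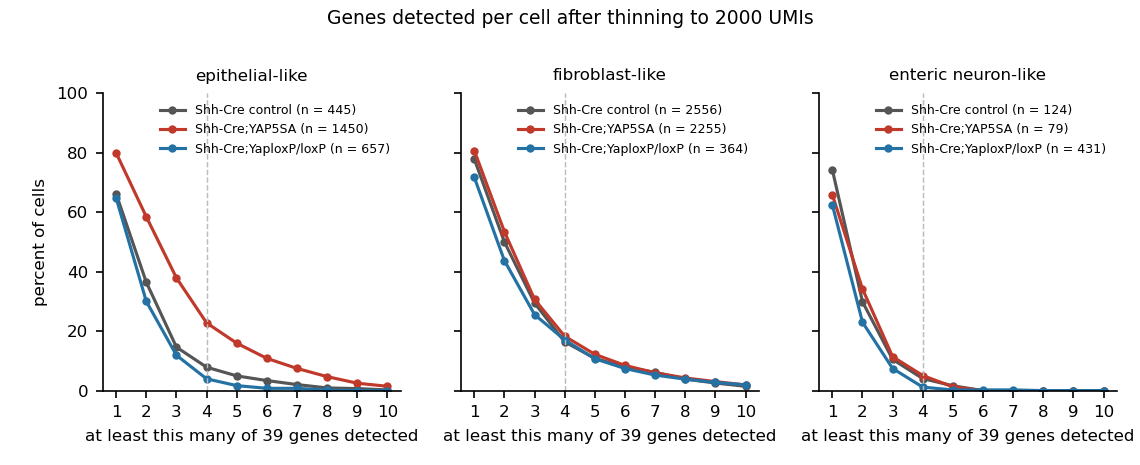
Percent of cells with at least the given number of the 39 genes detected, after thinning to 2000 UMIs, in epithelial-like, fibroblast-like and enteric neuron-like cells of the 3 libraries; the dashed line marks 4 genes. The YAP5SA epithelial line stays above the other 2 at every step, with 37.9% of cells at 3 genes and 10.8% at 6. The fibroblast-like lines lie close at 4 genes, at 16.4% in the control, 18.3% in YAP5SA and 17.0% in Yap knockout. They part at 1 gene, since none was detected in 22.1%, 19.3% and 28.3% of these cells.

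Cells with at least 4 genes hold many UMIs of the set by the way they are picked, so their level is a description. In these thinned cells there were 6.54, 6.85 and 5.27 UMIs of the set per cell in control, YAP5SA and Yap knockout, and in the remaining cells 1.05, 1.48 and 1.04. The 35, 330 and 26 cells with 4 or more held 34.7%, 57.8% and 17.3% of all UMIs of the set in these thinned cells. Genes outside the set were read in the same cells. A list of 22 other S phase chromatin and repair genes was higher in cells with at least 4 of the set than in the others, 2.77-fold in the control (2.34 to 3.26), 2.63-fold in YAP5SA (2.51 to 2.76) and 2.50-fold in Yap knockout (2.14 to 2.92). The 28 other replisome genes were 1.48-fold, 1.60-fold and 1.63-fold higher. In the same order, 21 genes of kinases, E2F and Rb control had ratios of 2.06, 1.86 and 1.62, and 25 mitosis genes 1.78, 1.75 and 3.25. Lists further from S phase were also above 1 in the control. The 12 G1 cyclins and CDK inhibitors had ratios of 1.29, 0.968 and 0.939, and 10 genes known to respond to tissue dissociation 1.22, 0.712 and 0.951. Cells with at least 4 of 25 mitosis genes after thinning made up 6.97% of the control epithelial-like cells, 15.8% of YAP5SA and 5.18% of Yap knockout, and 20.0%, 29.7% and 15.4% of the cells with at least 4 replication genes.

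The libraries differed in which epithelial subclasses they held. Neck or chief-like cells, the mucous and enzyme-secreting lineage, numbered 198 in the control, 10 in YAP5SA and 226 in Yap knockout, with 909, 889 and 691 CPM of the set. Pit-like cells, the surface mucous lineage, numbered 49, 0 and 66, with 481 CPM in the control and 489 CPM in Yap knockout. Parietal-like cells, the acid-secreting lineage, numbered 13, 0 and 56, with 356 and 459 CPM. Squamous-like cells, with keratins of stratified epithelium, numbered 13, 280 and 6. They stood at 686 CPM (532 to 869) in the control, 1050.5 CPM (1016 to 1086) in YAP5SA and 222 CPM (89.1 to 456) in Yap knockout. Most YAP5SA cells took no subclass: 1378 of 1689 cells with 1605 CPM, where 316 control cells stood at 729 CPM and 410 Yap knockout cells at 655 CPM. These groups were unlike in depth, with medians of 6243 UMIs in YAP5SA, 2136 in the control and 2329.5 in Yap knockout. A subclass asked for at least 3 of its markers, which shallow cells reach less often, so the 3 groups are not matched cells. Within the few neck or chief-like cells the control interval (865 to 955 CPM) lay within that of YAP5SA (697 to 1118 CPM). The limit between a subclass and none is a range: 246 of 3227 cells lay within 10% of it. In the clustering of all cells, most control (495) and Yap knockout (546) epithelial-like cells shared cluster 10, and 1453 YAP5SA cells lay in cluster 15. Cluster 11, whose cells had a median of 1696 UMIs, held a further 100 control and 223 Yap knockout epithelial-like cells.

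The rest of the cell cycle was read from lists made beside the set. In the YAP5SA epithelium 23 of 28 other replisome genes were higher than in the control, with a median log2 ratio of 0.43 over the 17 past the minimum. Tipin, a fork protection factor, stood at 11.9, 34.8 and 14.8 CPM in control, YAP5SA and Yap knockout, and Orc3 at 7.64, 23.0 and 10.4 CPM. The ribonuclease subunits went apart: Rnaseh2b stood at 17.4, 37.7 and 12.6 CPM, and Rnaseh2a at 75.9, 63.3 and 47.1 CPM. The topoisomerase gene Top1, at 112, 100.4 and 134.7 CPM, and Rnaseh2c, at 149, 147 and 92.9 CPM, were also below the control in YAP5SA. Of 22 S phase chromatin and repair partners 20 were higher in YAP5SA, with Hells, a chromatin remodeller, at 6.85, 22.8 and 9.79 CPM. The mitosis list was higher in YAP5SA for 25 of 25 genes, with a median of 0.71, close to that of the replication genes. Cdk1, the mitotic kinase, had a ratio of 3.26 (2.71 to 3.95), and Plk1 was level at 36.1 and 36.7 CPM.

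Regulators of the S phase step did not all move alike. Of 21 genes of kinases, E2F and Rb control, 18 were higher in YAP5SA, and the median over 12 past the minimum was 0.67. Tfdp1, the partner of E2F proteins, stood at 22.7, 61.5 and 19.6 CPM, Gmnn, the inhibitor of Cdt1, at 15, 40.9 and 15.4 CPM, and Dbf4, the activator of the Cdc7 kinase, at 7.64, 22.6 and 8.81 CPM. Cdc25a, the phosphatase that frees CDK activity, was lower in YAP5SA (26.9, 20.1 and 35.9 CPM). In Yap knockout E2f1 was lower (18.2 to 10.5 CPM) and E2f3 higher (12.4 to 22.9 CPM). The list of G1 cyclins and CDK inhibitors had the highest median in YAP5SA, 1.13 over 11 genes. It held both activators and brakes: Cdk6 stood at 41.1, 120.4 and 27.4 CPM, the inhibitor Cdkn2b at 10.0, 42.9 and 14.8 CPM, and the inhibitor Cdkn1a at 215, 228 and 338 CPM. Cdkn2a, the locus of the inhibitor p16 and of Arf, had 0 control UMIs and stood at 56.6 CPM in YAP5SA, at least 71.5-fold higher than a floor of 3 UMIs in the control sum. The list's median was 1.13 with Cdkn2a at that bound. Genes known to respond to tissue dissociation had a median of -0.41 in YAP5SA, with Jun at 670, 329 and 763 CPM, and their part in the result was not tested.

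In fibroblast-, smooth muscle- and macrophage-like cells the control level of the set was above that of the control epithelium, and the libraries differed less. Fibroblast-like cells stood at 1301 CPM in the control, 1326 CPM in YAP5SA and 1281 CPM in Yap knockout, ratios of 1.02 (1.00 to 1.04) and 0.985 (0.951 to 1.02). Smooth muscle-like cells stood at 1242, 1208 and 1162 CPM. Macrophage-like cells stood at 1327, 1128 and 1323 CPM, a YAP5SA ratio of 0.851 (0.812 to 0.891). The control epithelium stood at 759 CPM and the YAP5SA epithelium at 1487 CPM, below and above these 3 classes. Different clusters held most fibroblast-like cells of each library: cluster 0 in the control (1815 of 2875 cells), clusters 3 and 29 in YAP5SA (1229 and 1179 of 2557) and clusters 2 and 0 in Yap knockout (199 and 137 of 426). Smooth muscle-like cells lay mostly in cluster 9 in the control (602 of 608) and Yap knockout (668 of 682) and in cluster 27 in YAP5SA (397 of 419). Macrophage-like cells lay mostly in cluster 7 in all 3 libraries (308 of 318, 765 of 820 and 224 of 253). After thinning, 16.4% of control fibroblast-like cells, 14.6% of smooth muscle-like cells and 20.9% of macrophage-like cells had at least 4 of the genes.

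**Figure D4:**
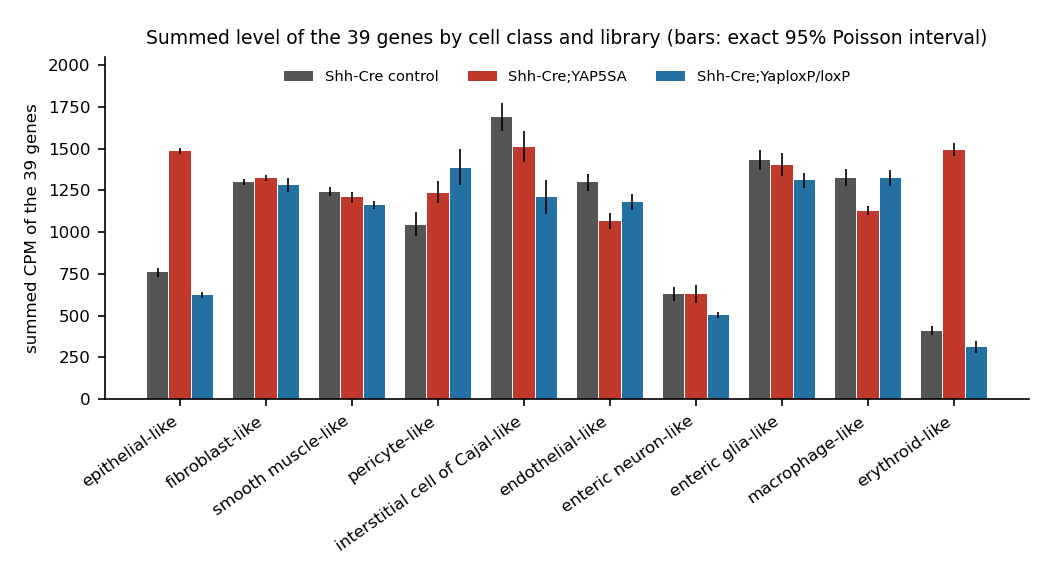
Summed CPM of the 39 genes in the 10 classes with at least 50 cells in every library; bars are levels and lines exact 95% Poisson intervals. The YAP5SA bar stands far above the control bar in epithelial-like cells (1487 against 759 CPM) and erythroid-like cells (1495 against 410 CPM), and enteric neuron-like cells stand between 504 and 628 CPM in all 3 libraries.

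Single genes in these classes showed few steps of 1.5-fold. In fibroblast-like cells 0 of 35 genes past the minimum were at least 1.5-fold higher in YAP5SA, against 4.72% of all genes, and 0 lower, against 5.0%; 19 of all 39 were above the control and 20 below. Their YAP5SA ratios ran from 0.798 for Chaf1a to 1.34 for Tyms, which stood at 60.0, 80.6 and 46.4 CPM. Other genes at the ends were Pola2 (24.6 to 19.8 CPM) and Mcm4 (28.6 to 23.7 CPM) below the control and Mcm3 (36.1 to 44.0 CPM) and Cdt1 (22.3 to 28.3 CPM) above it. Mitosis genes behaved otherwise in the same cells: 25 of 25 were lower in YAP5SA, with a median log2 ratio of -0.36. Of all genes past the minimum 48.5% were higher, and their median was -0.0088. In Yap knockout fibroblast-like cells Tk1 alone of the 35 was at least 1.5-fold lower, against 5.05% of genes, and 0 were higher, against 15.2%. Pola1 stood at 14.5, 14.1 and 23.0 CPM, 1.58-fold higher there (1.18 to 2.09), beside Fen1 (11.7, 13.8 and 18 CPM) and Mcm4 (28.6, 23.7 and 36.6 CPM) above the control and Gins2 and Cdc45 below it with ratios of 0.728 and 0.671.

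In smooth muscle-like cells 0 of 35 genes were at least 1.5-fold higher in YAP5SA (2.41% of all genes) and 0 lower (3.02%). Gins2 (50.5, 36.5 and 40.3 CPM), Chaf1b and Mcm2 had the lowest YAP5SA ratios, 0.724, 0.710 and 0.757, and Fen1, Rfc3 and Dut the highest, 1.42, 1.29 and 1.21. In Yap knockout 1 of 35 was at least 1.5-fold higher, against 8.94%, and 0 lower, against 4.25%. That gene was Pola1, at 10.6 CPM in the control, 13.3 CPM in YAP5SA and 20.5 CPM in Yap knockout, a ratio of 1.94 (1.45 to 2.60). Uhrf1 and Rfc3 followed it with 1.41 and 1.31, and Rfc5, Tyms and Dut were lowest with 0.688, 0.736 and 0.782. Here 22 of 25 mitosis genes were higher in Yap knockout with a median of 0.41, while 25 of 39 replication genes were lower. Of all genes past the minimum 57.4% were higher, with a median of 0.07.

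In macrophage-like cells 1 of 33 genes was at least 1.5-fold lower in YAP5SA, against 7.24% of all genes, and 0 higher, against 5.88%. That gene was Tk1, at 95.8 CPM in the control, 43.1 CPM in YAP5SA and 72.6 CPM in Yap knockout, a YAP5SA ratio of 0.450 (0.369 to 0.549), opposite to its 2.0 in the epithelium. Pcna and Mcm6 were next with 0.699 and 0.717, and Pola1, Cdc45 and Cdt1 were highest with 1.52, 1.27 and 1.09. In Yap knockout 2 of 33 were at least 1.5-fold higher, against 4.7%, and 1 lower, against 14.1%. Mcm4 stood at 17.9, 17.6 and 35.8 CPM, Chaf1b at 21.1, 20.6 and 37.2 CPM, and Prim2, the lower one, at 22.2, 19.9 and 12.4 CPM. Gins1 and Rfc5 were next lowest with 0.657 and 0.701, and Pola1 stood at 1.61.

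**Figure D5:**
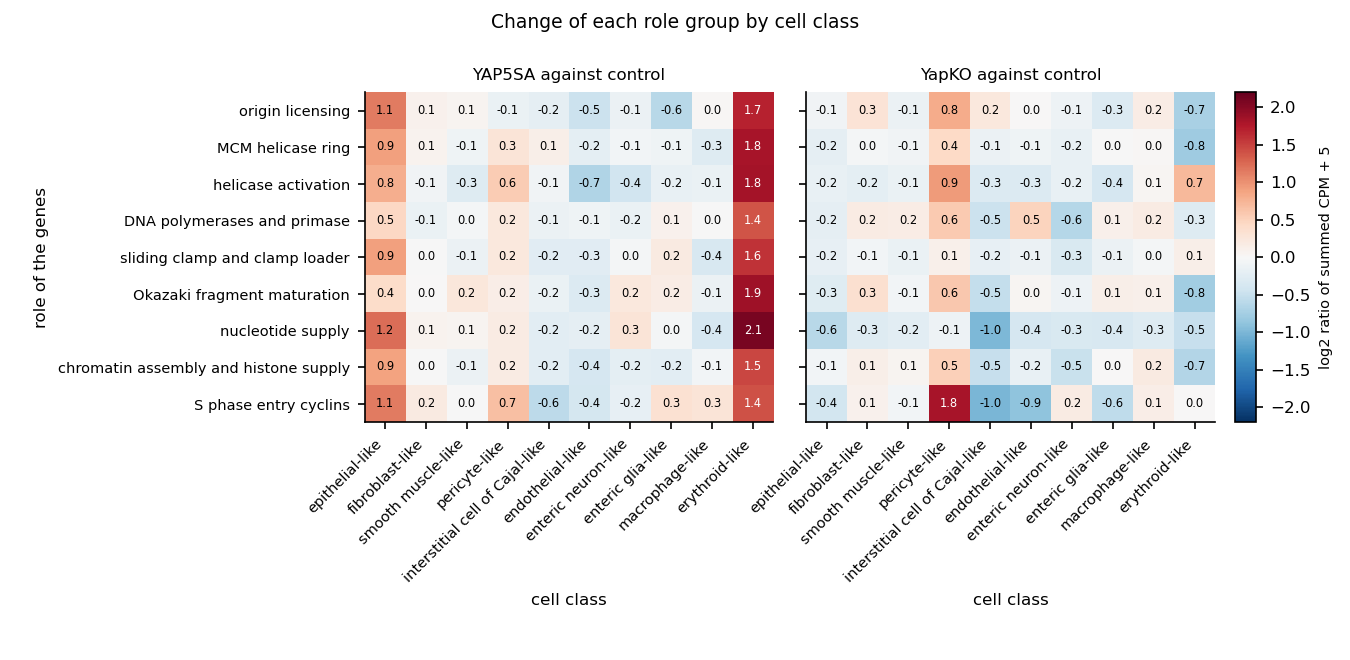
Log2 ratio of the summed CPM + 5 of each role group (rows) in each cell class (columns), YAP5SA against control on the left and Yap knockout against control on the right; red is higher and blue lower than the control. All 9 role groups are red in the epithelial-like and erythroid-like columns of YAP5SA, and the nucleotide supply row is below 0 in all 10 classes of Yap knockout.

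Among the classes with at least 50 cells in each library, erythroid-like cells had the highest YAP5SA ratio, 3.65 (3.41 to 3.90). They stood at 410 CPM in 302 control cells, 1495 CPM in 468 YAP5SA cells and 311 CPM in 173 Yap knockout cells. All 9 role groups were higher, from 2.81-fold for polymerases and primase to 4.42-fold for nucleotide supply. Many of these cells lay in clusters 28, 8 and 13, which the libraries held unequally, and the rest lay in other clusters. Cluster 28, with 42.3% of UMIs from haemoglobin in YAP5SA, held 158 YAP5SA cells, 16 control cells and 1 Yap knockout cell, and the set stood there at 2836 CPM in YAP5SA and 2220 CPM in the control. Clusters 8 and 13, with 72.2% to 79.1% haemoglobin, held 2 and 268 control cells. The set stood there at 295 CPM in the 228 YAP5SA cells of cluster 8 and 249 CPM in the 268 control cells of cluster 13. The 130 Yap knockout cells of cluster 13 stood at 181 CPM. Red cells had been lysed in the preparation of all 3 libraries, and the part of that step in these numbers was not tested.

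Over the 34 class sums of at least 50 cells, the summed set ranged from 311 to 1689.9 CPM. Single genes followed that sum to different degrees, with Pearson correlations of log2(CPM + 5) from 0.48 for Pola2 to 0.95 for Mcm6 and a median of 0.77 over the 34 genes with a mean of at least 10 CPM over the class sums, each of them part of the sum. The median over all genes was 0.31. These sums share libraries and free RNA, so the values are a description. Outside the set, the 10 genes most like it among 10326 were Anp32b (0.918), E2f1 (0.889), Pkmyt1 (0.872), Gmnn (0.857), Siva1 (0.856), Aurkb (0.854), Cdk1 (0.847), Zfp367 (0.841), Ccnb2 (0.840) and Dtymk (0.839). E2f1 encodes an E2F factor and Dtymk the thymidylate kinase, and Aurkb, Cdk1 and Ccnb2 act in mitosis.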

How the data were processed

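Single-cell RNA of the E18.5 hindstomach was measured in 3 libraries, 1 per genotype, made with the DNBelab C Series 3′ kit. The authors deposited raw UMI counts for every gene in every cell, without normalization. They were written with PISA 1.0 per the file headers, and aligned with STAR to GRCm39 per the submitters' processing notes. The sources used here name no correction for free RNA, and the deposited cells hold at least 1000 UMIs.

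Cells with at least 500 genes and at most 20% mitochondrial UMIs were kept. Scrublet in scanpy 1.11.5 called 0 doublets by its own threshold in each library, so the top 6% by score were taken out instead (441, 517 and 309). Each cell took the class of highest multinomial likelihood over fixed marker genes in its own library, with a posterior of at least 0.95 and at least 3 markers detected. This leaves 35, 12 and 68 cells likeliest to be epithelial under the posterior limit in control, YAP5SA and Yap knockout. The scoring rule was chosen after the data had been seen. UMIs were summed per class and library and scaled to CPM. Ratios carry the exact conditional interval of 2 Poisson counts, levels an exact Poisson interval and shares of cells a Clopper-Pearson interval. No test was made, since each group is 1 library. Log2 ratios used a pseudocount of 5 CPM and a mean of at least 10 CPM over the libraries. For depth, UMIs of each cell were drawn at random down to 2000, leaving out shallower cells. Leiden clusters (3000 variable genes less replication and cell cycle genes, 40 components, 15 neighbours, resolution 1.0, igraph 0.11.9) served as an alternative and a check. The counting steps were tested on simulated data.

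The 39 genes, the other lists and the markers were chosen with earlier results of these data known. Genes were named by rule: in epithelial-like cells the 8 highest and 4 lowest of the 39 by log2 ratio and a set of 13 always read, in the macrophage-like, fibroblast-like and smooth muscle-like classes 3 from each end, up to 3 of each end of every other list, and the 10 genes most correlated with the summed set. Rfc, Chaf1, Prim2, Fen1, Pole and Gins genes beyond the rule are given to account for all 39. Alternatives were other scalings (TMM in edgeR 4.0.16, mean of per-cell CPM), filters, pseudocount, gates, depths and numbers of genes. Organoid bulk RNA sequencing of the study is not analysed here. Scripts ran in Python 3.11.15 with scipy 1.17.1, numpy 2.4.6, matplotlib 3.10.9 and pandas 2.3.3.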

Additional observations from a re-analysis of the deposited data

Results flagged for a closer look

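Among the classes with at least 50 cells in each library, 3 had a YAP5SA to control ratio of the summed 39 genes with an interval wholly below 1, while the epithelial-like ratio was 1.96. The ratio was 0.893 (0.825 to 0.966) in interstitial cell of Cajal-like cells, 0.821 (0.775 to 0.870) in endothelial-like cells and 0.851 (0.812 to 0.891) in macrophage-like cells. Smooth muscle-like cells (0.972, 0.939 to 1.01) and enteric glia-like cells (0.981, 0.920 to 1.05) had ratios below 1 with intervals across 1, and monocyte or dendritic-like cells (0.812, 0.726 to 0.908) had only 41 control cells. Pericyte-like cells lay above the control in YAP5SA, at 1237 CPM against 1045 CPM, a ratio of 1.18 (1.08 to 1.29). In Yap knockout, pericyte-like cells lay above the control with a ratio of 1.33 (1.19 to 1.47), from 1045 CPM in 108 control cells to 1386 CPM in 62 knockout cells, while the epithelial-like ratio was 0.818. These differences between classes were not tested, because each genotype has 1 library.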

How the results depend on the processing

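The ratios and medians against the control kept their direction under every alternative run. The YAP5SA to control ratio of the summed set, 1.96, was 2.09 without squamous-like and intestinal-like cells, 2.10 with TMM scaling and 1.84 as a mean of per-cell CPM. The count of genes at least 1.5-fold higher in YAP5SA, 25 of 32, fell to 19 of 32 as a mean of per-cell CPM. Under the other alternatives it was 24 to 27, over 32 to 39 genes. A count within 1.5-fold of the reported one is counted below as near it. The YAP5SA median of 0.74 was 0.85 without squamous-like and intestinal-like cells, 0.82 with TMM (which moved the median of all genes from 0.09 to 0.17) and 0.90 with a pseudocount of 1 CPM. The Yap knockout median of -0.25 was -0.18, and the count at least 1.5-fold higher 1 in place of 0, as a mean of per-cell CPM. Yap knockout genes at least 1.5-fold lower numbered 2, but 4 with TMM or with 5 markers asked for, and 5 with a pseudocount of 1 CPM. Shares of epithelial-like cells with at least 4 of the genes depend on depth and gate. In the control, 28.2% became 23.1% with classes from clusters, 33.5% with 5 markers, 57.7% among cells of at least 4000 UMIs (chosen after seeing the data), 38.8% at 3 genes, 16.8% at 6 genes, and 1.54% and 7.87% thinned to 1000 and 2000 UMIs. In YAP5SA, 63.3% became 82.7% in cells of at least 4000 UMIs, 72.3% at 3 genes, 48.0% at 6 genes, and 8.17%, 22.8% and 50.8% thinned to 1000, 2000 and 4000 UMIs. In Yap knockout, 31.2% became 23.3% with clusters, 37.6% with 5 markers, 58.4% in cells of at least 4000 UMIs, 41.7% at 3 genes, 19.9% at 6 genes, and 1.01%, 3.96% and 20.2% thinned to 1000, 2000 and 4000 UMIs. The order of the control and Yap knockout shares turned round with depth: the knockout share was the higher at full depth and the lower when thinned to 1000, 2000 or 4000 UMIs (26.5% in the control at 4000), and no order is read from the shares at full depth. Of the values recomputed under the alternatives listed at the start 54 stayed near the reported value and 26 moved, and under the one added later 6 stayed and 3 moved. No paired analysis was possible because each genotype has 1 library, and leaving out a replicate was not possible for the same reason. Genes under about 10 CPM had few UMIs, so that their ratios have wide intervals.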
